A study of Mus musculus with 4 samples.

Results

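The genes described here carry glucose through the liver: its transport, glycolysis, gluconeogenesis, glycogen turnover, the entry of fructose and the control of pyruvate dehydrogenase. They were chosen by symbol, as every probe set whose platform annotation gives exactly 1 of 28 listed symbols. Of these, 25 genes had such a probe set, among 18194 genes on the array, and all 25 reached a log2 signal of 4, the level below which signals were treated as too dim to measure, on at least 1 array. They were read by 50 probe sets, of which 46 reached that level. Pfkfb1, Gpi1 and Eno1 are not analysed here.

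Liver RNA came from male C57BL/6J mice that were 8 to 12 weeks old when feeding began and ate for 20 weeks a diet in which fat gave 10% (low-fat) or 45% (high-fat) of the energy. In both diets palm oil replaced lard. In the last week mice received 2 injections into the peritoneal cavity of clodronate liposomes, which kill phagocytes that swallow them, or of phosphate-buffered saline (PBS). PBS without liposomes was the control, so effects of liposomes, clodronate and macrophage loss cannot be told apart. Each pool mixed the same amount of RNA from 8 low-fat or 10 high-fat mice, and the 4 pools went on 1 array each. There is therefore no replicate array in any group, and the feeding state of the mice at sampling is not given in the sources used here.

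In the liver, glucose enters and leaves through the transporter GLUT2 and is trapped as glucose 6-phosphate, which can be burned through glycolysis, stored as glycogen or released again by glucose-6-phosphatase. Gluconeogenesis makes glucose from lactate and amino acids through pyruvate carboxylase, phosphoenolpyruvate carboxykinase, fructose bisphosphatase and glucose-6-phosphatase. Insulin represses and glucagon raises the transcription of the genes for phosphoenolpyruvate carboxykinase and glucose-6-phosphatase, and pyruvate dehydrogenase, held in check by its kinases, commits pyruvate to oxidation or fat synthesis.

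Of 12 hepatocyte markers 10 were measured, and their summed signal lay between 17.13 and 17.19 (log2) on the 4 arrays. The 11 Kupffer cell markers, genes of the resident liver macrophages, had a summed log2 signal of 12.86 (low-fat) and 12.74 (high-fat) with PBS and of 11.41 (low-fat) and 11.23 (high-fat) with clodronate. Their median difference after clodronate was -1.79 (low-fat) and -1.85 (high-fat) on the log2 scale. Values below 4 were set to 4 for this, so a fall to below 4 counts as smaller than it was. Clec4f, a lectin receptor of Kupffer cells, was below 4 on both clodronate arrays. The 13 pan-macrophage markers had summed log2 signals of 12.54 and 12.42 with PBS and of 10.06 and 10.10 with clodronate. Medians of the 9 endothelial markers differed by 0.10 and 0.03 (log2) after clodronate. In bulk liver, fewer cells of a type and less RNA per cell cannot be told apart.

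In 15 of the 25 genes the highest and lowest array were less than 0.2 apart on the log2 scale, against 30.0% of the 8650 detected genes. Bright genes vary less: among detected genes with a mean of 9 or more this share was 56.3%, and among the 23 members with such a mean it was 14 of 23. The widest ranges were those of Pfkfb3, 1.28 on the log2 scale and high on the low-fat clodronate array alone, and of G6pc, 1.07 and lower on both high-fat arrays. The other 8 genes above 0.2, Ppp1r3b, Ppp1r3c, Khk, Pdk1, Pdk2, Gys2, Pygl and Pdha1, had ranges of 0.28 to 0.41 (log2).

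**Figure D1:**
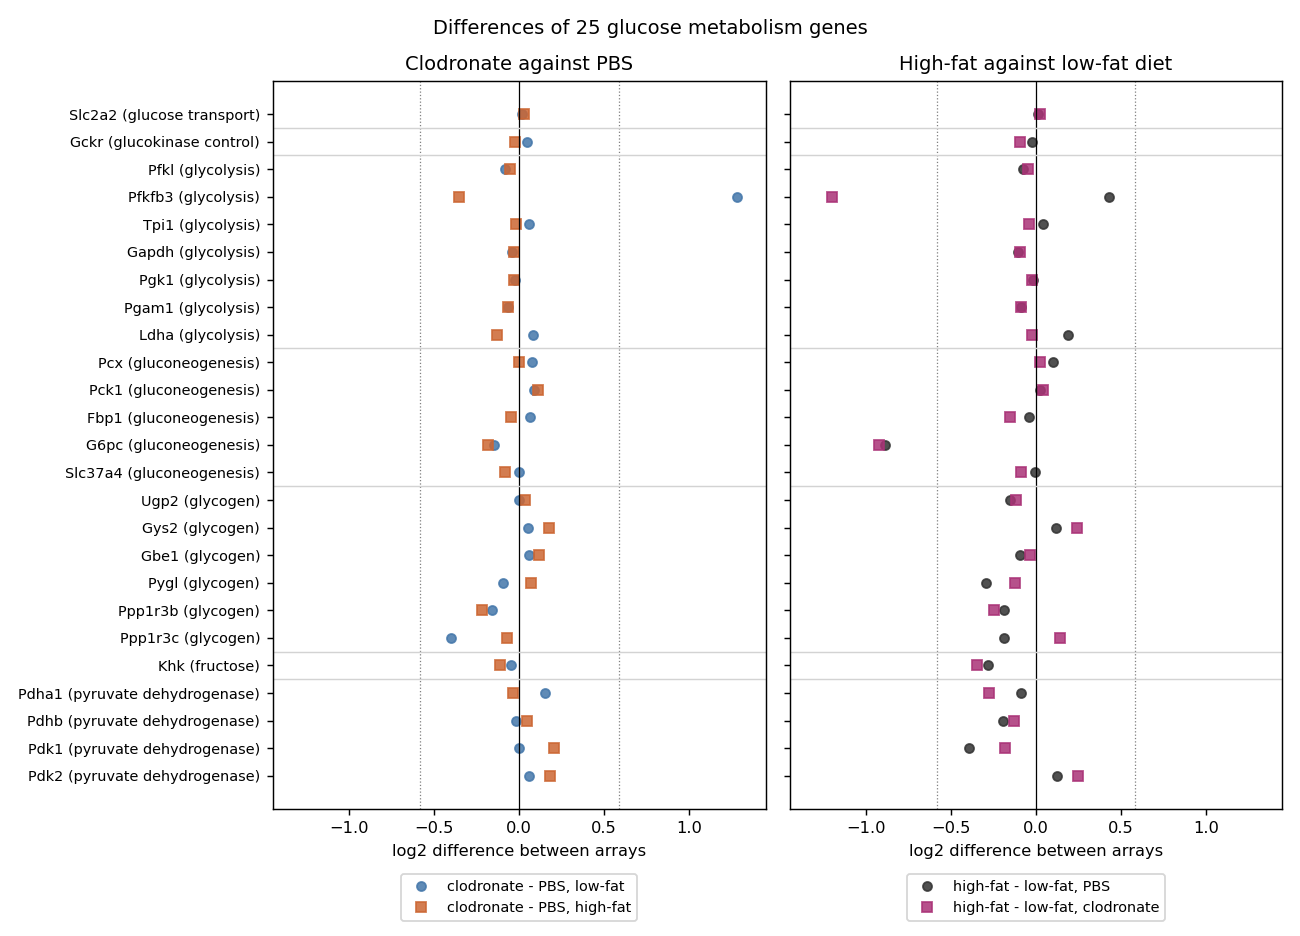
Each row is 1 of the 25 measured genes, with its function in brackets, and each symbol is the log2 difference between 2 pooled arrays, for clodronate against PBS (left) and high-fat against low-fat diet (right). Dotted lines mark 1.5-fold. G6pc lies beyond the left line of the diet panel at -0.89 (PBS) and -0.93 (clodronate), Pfkfb3 lies beyond a line after clodronate on the low-fat diet and for diet with clodronate, and all others lie between the lines.

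G6pc, the catalytic subunit of glucose-6-phosphatase, which releases free glucose at the end of gluconeogenesis and glycogen breakdown, had a log2 signal of 11.50 in the low-fat PBS pool, 11.36 in the low-fat clodronate pool, 10.61 in the high-fat PBS pool and 10.43 in the high-fat clodronate pool. Both high-fat arrays thus lay below both low-fat arrays. The signal was 1.85-fold lower on the high-fat diet with PBS and 1.90-fold lower with clodronate. Only 39 of 8650 genes, G6pc included, were as far down or farther with PBS, and 80 with clodronate. Averaged over the injections, G6pc fell by 0.91 ± 0.03 on the log2 scale (SD of the 2 differences, n = 2; additive limma model over all 8650 genes, Benjamini-Hochberg adjusted p = 0.000294). It was the only one of the 25 members called for diet, where 1.69% of all genes were called. The call rests on how the variance was modelled, since the adjusted p was 0.233 in limma with 1 prior variance for all genes, a model that called 0 genes for diet and had 894 at an unadjusted p below 0.05. Its range over all alternatives was 0.00172 to 0.233. This gene has 1 probe set, so no second probe set bears on its value. Here and in later paragraphs, ± is the SD of the differences in the 2 injection groups, or on the 2 diets for clodronate. These differences are not replicates, so ± gives no replicate error.

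The glucose 6-phosphate transporter Slc37a4, which hands the substrate to this enzyme across the membrane of the endoplasmic reticulum, had log2 signals of 10.34, 10.33, 10.33 and 10.25 in the order low-fat PBS, low-fat clodronate, high-fat PBS and high-fat clodronate. That order is kept in all series of 4 values that follow. Its diet differences were -0.01 with PBS and -0.09 with clodronate (log2).

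Pck1, cytosolic phosphoenolpyruvate carboxykinase and the other classical gene of gluconeogenesis, had log2 signals of 13.14, 13.23, 13.17 and 13.28. Its diet differences were 0.02 with PBS and 0.04 with clodronate, and a second bright probe set gave -0.01 in each (log2). The diet differences of G6pc and Pck1 therefore lay 0.91 apart with PBS and 0.97 with clodronate on the log2 scale. After clodronate both bright Pck1 probe sets were higher on each diet, by 0.09 to 0.12 (log2), which was not called (limma, Benjamini-Hochberg adjusted p = 1). Fbp1, fructose bisphosphatase, had log2 signals of 13.05, 13.11, 13.01 and 12.96, with diet differences of -0.04 and -0.15.

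Pcx, pyruvate carboxylase, which makes oxaloacetate for gluconeogenesis, was read by 5 probe sets. By the brightest its log2 signals were 11.25, 11.32, 11.35 and 11.35. With PBS all 5 read higher in the high-fat pool, by 0.10 to 0.55 (log2). With clodronate their differences ran from -0.00 to 0.35. In 4 of the 5, control probe sets placed along the transcript, the probe set nearest the 5′ end differed by 0.33 and 0.35 and the one nearest the 3′ end by 0.18 and -0.00 (log2, with PBS and clodronate). Averaged over the injections Pcx differed by 0.06 ± 0.05 (log2; limma, Benjamini-Hochberg adjusted p = 0.790).

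The promoters of G6pc and Pck1 are shown because these genes share a known class of cAMP response element but had different diet differences, and those of Khk and Pfkfb3 because both genes stood out and hold an E-box. Sequences are the 250 bases before the annotated start, from RefSeq (GRCm38.p6), written 5′ to 3′ on the strand of the gene. Capitals mark TTACGTNA in the first pair and CACGTG, the E-box core, in the second pair.
G6pc, chr11:101367466-101367715, plus strand: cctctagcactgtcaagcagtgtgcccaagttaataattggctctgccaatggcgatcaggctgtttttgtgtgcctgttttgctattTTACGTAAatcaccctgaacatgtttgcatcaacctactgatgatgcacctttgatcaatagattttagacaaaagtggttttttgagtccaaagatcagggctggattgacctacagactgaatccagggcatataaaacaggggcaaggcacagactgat
Pck1, chr2:173152823-173153072, plus strand: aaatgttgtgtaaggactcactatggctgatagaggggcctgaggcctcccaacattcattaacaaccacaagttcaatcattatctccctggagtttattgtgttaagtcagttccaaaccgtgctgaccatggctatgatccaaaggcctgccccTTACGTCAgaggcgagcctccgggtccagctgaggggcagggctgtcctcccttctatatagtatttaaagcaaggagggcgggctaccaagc
Khk, chr5:30921309-30921558, plus strand: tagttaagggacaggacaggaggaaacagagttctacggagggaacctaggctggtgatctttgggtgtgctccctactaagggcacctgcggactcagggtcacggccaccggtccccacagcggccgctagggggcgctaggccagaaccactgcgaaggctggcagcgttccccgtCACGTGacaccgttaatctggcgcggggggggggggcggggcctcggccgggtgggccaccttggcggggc
Pfkfb3, chr2:11502091-11502340, minus strand: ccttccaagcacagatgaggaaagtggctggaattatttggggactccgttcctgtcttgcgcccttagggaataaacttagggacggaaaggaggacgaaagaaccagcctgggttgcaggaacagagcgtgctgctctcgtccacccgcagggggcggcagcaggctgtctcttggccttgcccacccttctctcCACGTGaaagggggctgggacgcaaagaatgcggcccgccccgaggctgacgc

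RefSeq windows were found for 23 of the 25 genes, 31 windows in all, since some genes have several starts. TTACGTNA, searched on both strands like the other motifs and chosen after those, begins 162 bases before the start of G6pc and 93 bases before that of Pck1. It was in 2 of the 31 windows, those of G6pc and Pck1, and in 0.788% of all 32851 windows of the same length. It stands for the element that these 2 genes are known to share, so the shares are no measure of enrichment. CACGTG was in 6 windows, those of Pfkfb3, Khk, Ldha, Pdk2, Pcx and Ppp1r3c, against 6.02% of all windows. TGACGTCA, the full palindromic cAMP response element, was in 1 window, of Ldha, against 1.55% of all. TGACG, which lies inside TGACGTCA, was in 10 windows, against 17.8% of all, and in Pck1 and Khk it overlaps the capitals on the other strand. GTAAACA, a form of FOXO site, was in 0 windows, against 3.17% of all, and no other form of that site was searched. These are matches of letters and were not tested as sites. The genes with an E-box did not share a direction with diet: Khk was lower on both high-fat arrays, Pdk2 and Pcx were higher on both, and Pfkfb3, Ppp1r3c and Ldha had opposite signs with PBS and clodronate, where the sign of Ldha with clodronate turned with scaling.

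**Figure D2:**
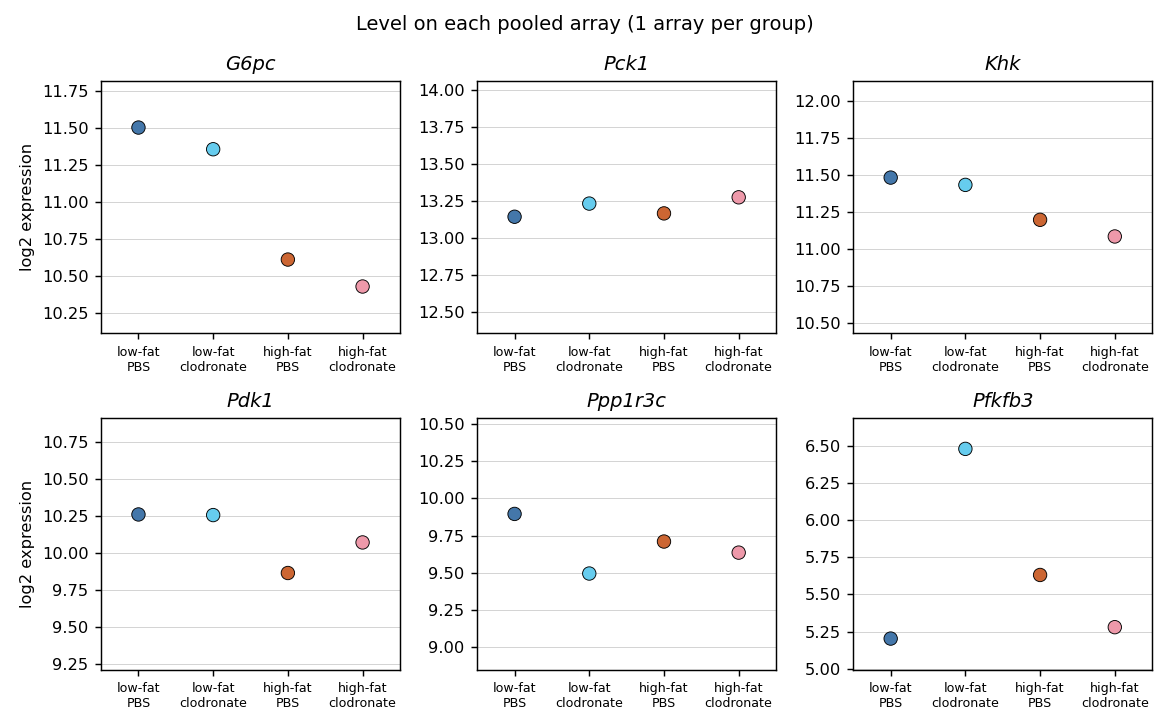
Log2 expression of 6 genes on each of the 4 pooled arrays, 1 point per array, with axes of equal length so that distances can be compared between panels. G6pc splits into a high low-fat pair and a low high-fat pair, Pck1 stays between 13.14 and 13.28, and Pfkfb3 is high at 6.48 on the low-fat clodronate array only.

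Khk, ketohexokinase, the first enzyme of fructose breakdown, had log2 signals of 11.48, 11.43, 11.20 and 11.08. Both high-fat arrays were below both low-fat arrays, by 1.22-fold with PBS and 1.27-fold with clodronate. Its averaged diet difference was -0.32 ± 0.04 (log2; SD, n = 2) and did not pass (limma, Benjamini-Hochberg adjusted p = 0.0582, and from 0.0533 to 0.463 over the alternatives). Slc2a2, the transporter GLUT2, had log2 signals of 12.11, 12.13, 12.12 and 12.15, a spread of 0.04. Gckr, the regulatory protein that holds glucokinase in the nucleus, had 10.33, 10.38, 10.31 and 10.28.

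Of 6 measured glycogen genes 5 had a lower signal on the high-fat diet with PBS, where 48.9% of all genes did, and 4 with clodronate, where 64.9% of all genes did. The sign of Gbe1 with clodronate turned when arrays were centred or quantile normalized. None of the 6 was called for diet or clodronate. Pygl, liver glycogen phosphorylase, which breaks glycogen down, had log2 signals of 13.10, 13.01, 12.81 and 12.88. Its high-fat arrays lay below its low-fat arrays, with an averaged difference of -0.21 ± 0.12 (log2; limma, Benjamini-Hochberg adjusted p = 0.168). Ppp1r3b, the liver subunit that brings protein phosphatase 1 to glycogen and activates glycogen synthase, had log2 signals of 11.20, 11.05, 11.01 and 10.80. It was lower with diet, by 0.19 and 0.25, and after clodronate, by 0.16 (low-fat) and 0.22 (high-fat), so that the pool with both had the lowest signal. Neither averaged effect was called (limma, Benjamini-Hochberg adjusted p = 0.218 for diet and 0.840 for clodronate).

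Gys2, liver glycogen synthase, went the other way, with log2 signals of 9.77, 9.83, 9.89 and 10.06. Both high-fat arrays were above both low-fat arrays, and the averaged difference of 0.18 ± 0.09 (log2) was not called (limma, Benjamini-Hochberg adjusted p = 0.430). Ugp2, which makes the UDP-glucose that glycogen synthase uses, was lower on the high-fat diet with PBS in all 5 of its probe sets, by 0.11 to 0.23 (log2). With clodronate the differences of its probe sets ran from -0.15 to 0.01. By its brightest probe set the log2 signals were 12.71, 12.71, 12.56 and 12.59. Gbe1, the branching enzyme, had log2 signals of 10.56, 10.62, 10.47 and 10.59, and its diet arrays overlapped.

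Ppp1r3c, another glycogen-targeting subunit of protein phosphatase 1, was lowest on the low-fat clodronate array. Its log2 signals were 9.90, 9.49, 9.71 and 9.63 by the brighter probe set and 8.01, 7.50, 7.99 and 8.01 by the other. After clodronate on the low-fat diet these probe sets differed by -0.40 and -0.51, and on the high-fat diet by -0.07 and 0.02 (log2). The averaged clodronate difference was -0.24 ± 0.23 (log2) and was not called (limma, Benjamini-Hochberg adjusted p = 1).

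In glycolysis, 6 of the 7 measured genes had differences under 0.2 (log2) in every comparison. Pfkl, liver phosphofructokinase, had log2 signals of 7.62, 7.53, 7.54 and 7.48, and a dimmer probe set had the opposite sign for diet with PBS, 0.16 against -0.08. Tpi1, triose phosphate isomerase, had log2 signals of 11.61, 11.67, 11.65 and 11.63. Pgk1, phosphoglycerate kinase, had 11.51, 11.49, 11.50 and 11.47. For Pgam1, phosphoglycerate mutase, they were 10.89, 10.82, 10.80 and 10.74.

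Gapdh, glyceraldehyde phosphate dehydrogenase and a common reference gene, had log2 signals of 13.16, 13.12, 13.05 and 13.02. All 3 of its probe sets, at the 5′ end, the middle and the 3′ end of the transcript, were lower on the high-fat diet, by 0.10 with PBS and by 0.09 to 0.13 with clodronate, the latter a sign that turned for the brightest when arrays were centred on their median. Ldha, lactate dehydrogenase A, had log2 signals of 12.36, 12.44, 12.56 and 12.42, highest in the high-fat PBS pool, with diet differences of 0.19 and -0.02.

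Pfkfb3, which makes fructose 2,6-bisphosphate, the activator of phosphofructokinase, had log2 signals of 5.20, 6.48, 5.63 and 5.28. The low-fat clodronate array was apart from the other arrays, which spanned 5.20 to 5.63. On the low-fat diet Pfkfb3 was 2.43-fold higher after clodronate, and 8 of 8650 genes, itself included, were as far up or farther. On the high-fat diet it differed by -0.35 (log2) after clodronate. With diet it differed by 0.43 with PBS and was 2.30-fold lower with clodronate. All these comparisons share arrays, and the large ones both use the low-fat clodronate array. Its clodronate difference on the high-fat diet minus that on the low-fat diet was -1.63 (log2) and -1.46 after quantile normalization, where the median of all genes was -0.09 as deposited and 0.01 after quantile normalization. It could not be tested, since no residual degree of freedom is left for it. Its averaged clodronate difference of 0.46 ± 1.15 (log2) was not called (limma, Benjamini-Hochberg adjusted p = 1). The only other probe set of Pfkfb3 was below 4 on all arrays and gave no second measurement. The part of macrophage markers in this value was not tested. Their summed signal was lower on both clodronate arrays.

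Among pyruvate dehydrogenase genes, the kinases Pdk1 and Pdk2, which switch the complex off, differed in opposite directions with diet. Pdk1 had log2 signals of 10.26, 10.25, 9.86 and 10.07. Its 3 measured probe sets were lower on the high-fat diet by 0.40, 0.49 and 0.44 with PBS and by 0.18, 0.58 and 0.65 with clodronate (log2). None was called: the averaged difference of the brightest was -0.29 ± 0.15 (log2; limma, Benjamini-Hochberg adjusted p = 0.182), and those of the others were -0.53 and -0.54 (limma on all probe sets, Benjamini-Hochberg adjusted p = 0.166 and 0.229). Pdk2 had log2 signals of 9.22, 9.28, 9.35 and 9.53, both high-fat arrays above both low-fat arrays, with an averaged difference of 0.19 ± 0.09 (log2; limma, Benjamini-Hochberg adjusted p = 0.454).

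Of the subunits of the first enzyme of the complex, Pdha1 had log2 signals of 9.59, 9.74, 9.50 and 9.46 and Pdhb of 10.84, 10.83, 10.65 and 10.70. The probe sets disagreed in sign for Pdha1 with PBS (-0.09 and 0.09) and for Pdhb with clodronate (-0.13 and 0.22, log2).

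**Figure D3:**
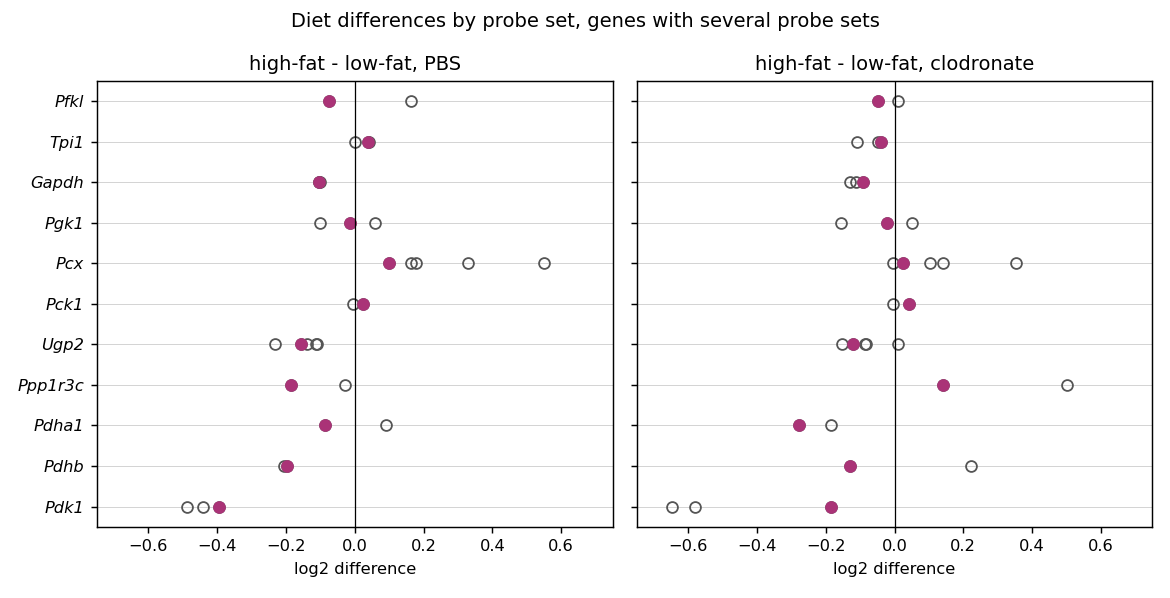
Log2 diet difference of every probe set at 4 or more on at least 1 array, for the 11 genes with several such probe sets, with PBS (left) and clodronate (right). Filled points are the brightest probe set of a gene and open points the others. All 3 probe sets of Pdk1 lie below 0 in both panels, all 5 of Pcx lie above 0 with PBS, and those of Pck1, Pfkl, Pgk1 and Pdha1 lie on both sides of 0 with PBS.

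Counted together, 1 of the 25 genes was 1.5-fold or more apart between the diets with PBS, where 3.62% of all detected genes were, and 2 of 25 with clodronate, where 6.47% were. After clodronate 1 of 25 was 1.5-fold or more apart on the low-fat diet, against 3.38% of all genes, and 0 of 25 on the high-fat diet, against 3.62%. These counts are near the background. The median diet difference of the members was -0.08 with PBS, where that of all genes was 0.00, and -0.09 with clodronate, where that of all genes was -0.08 (log2). With arrays centred on their median, the members' medians were -0.08 and 0.02, beside 0.00 and 0.01 for all genes. After quantile normalization they were -0.08 and -0.03, beside -0.01 and 0.00 for all genes. With the mean of a gene's probe sets they were -0.02 and -0.09, beside 0.01 and -0.09 for all genes. After clodronate the members' medians were -0.00 (low-fat) and -0.03 (high-fat), beside 0.04 and -0.05 for all genes. With centred arrays they were -0.04 and 0.04, beside 0.00 and 0.02 for all genes. With quantile normalization they were -0.04 and 0.01, beside 0.00 and 0.01.

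In 13 of the 25 genes both high-fat arrays were below both low-fat arrays, as in 29.5% of all genes, and in 3, Pcx, Gys2 and Pdk2, both were above, as in 16.4% of all genes. After centring, these counts were 8 and 6 of 25, where 21.5% and 23.7% of all genes were so placed. After quantile normalization they were 12 and 4, against 22.8% and 22.3% of all genes. With the mean of a gene's probe sets they were 11 and 3, against 29.7% and 16.3% of all genes. By the brightest probe set, G6pc, Khk, Pdk1, Pygl, Ppp1r3b, Ugp2, Fbp1, Pdha1 and Pdhb were lower on the high-fat diet with both injections under each scaling. In 13 of the 25 genes the sign of at least 1 difference turned when arrays were centred or quantile normalized, and each such difference was 0.10 or less (log2). For clodronate, both arrays were below both PBS arrays in 3 of 25 genes, against 13.2% of all genes, and above in 3, against 11.3%. Of the 25 members 0 were called for clodronate in limma, where 1.09% of all genes were called, and 3 had an unadjusted p below 0.05, as did 410 of the 8650 genes. With 1 prior variance 0 members and 441 of all genes did.

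Beyond these genes, 60 of 96 other genes of glucose metabolism were measured, 27 were below 4 on all arrays, and 9 are not analysed here. For diet 4 of the 60 were called, where 1.69% of all genes were. These 4 fell, while the calls among all genes were 75 higher and 71 lower, or 111 higher and 60 lower with centred arrays. Pklr, liver pyruvate kinase, which ends glycolysis, had log2 signals of 10.06, 10.10, 9.24 and 9.22 and fell by 0.85 ± 0.04 (limma, Benjamini-Hochberg adjusted p = 0.00125). Its size was close to that of G6pc, an enzyme of the opposite direction, at 1.80-fold and 1.88-fold lower. Pgd, phosphogluconate dehydrogenase of the pentose phosphate pathway, fell by 0.54 ± 0.03 (log2; limma, Benjamini-Hochberg adjusted p = 0.0120). Pdk4, another pyruvate dehydrogenase kinase, fell by 0.96 ± 0.41 (log2; limma, Benjamini-Hochberg adjusted p = 0.0481), so that it was lower as Pdk1 was and Pdk2 was not. Rpia, ribose phosphate isomerase, was not called and was 1.51-fold lower with PBS and 1.73-fold lower with clodronate.

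Got1, cytosolic aspartate aminotransferase, was the only one of these 85 measured genes called for both factors. Its log2 signals were 11.41, 11.80, 11.08 and 11.42. It fell with diet by 0.35 ± 0.04 (log2; limma, Benjamini-Hochberg adjusted p = 0.0356) and rose with clodronate by 0.37 ± 0.04 (log2; limma, Benjamini-Hochberg adjusted p = 0.0335). The high-fat clodronate array was therefore level with the low-fat PBS array. With 1 prior variance none of the calls of Pklr, Pgd, Pdk4 and Got1 was kept, with adjusted p between 0.251 and 0.867, and Pdk4 was called under none of the alternatives. The call of Pgd was also lost without a filter on low values and with all probe sets as features. Got1 was called for both factors as deposited, with centred arrays and after quantile normalization, and under no other alternative. Its diet call was lost with the mean of probe sets, with values below 4 set to 4, without a filter and with all probe sets, and its clodronate call with the last 3 of these.

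The larger differences among the other 60 genes that were not called included Slc16a7, a monocarboxylate transporter, and Slc2a9, a urate and hexose transporter, with 1.67-fold and 1.51-fold higher signals in the high-fat PBS pool than in the low-fat PBS pool. Pgm3, which acts in hexosamine synthesis, and Pmm2, phosphomannomutase, were both 1.63-fold higher in the high-fat clodronate pool than in the low-fat clodronate pool. With PBS, Pmm2 differed by -0.06 (log2) between the diets. After clodronate, Gfpt1, which starts hexosamine synthesis, was 1.46-fold lower on the low-fat diet and 1.29-fold lower on the high-fat diet. Its averaged clodronate difference of -0.46 ± 0.13 (log2) was not called (limma, Benjamini-Hochberg adjusted p = 0.242). Pkm, the pyruvate kinase of most tissues outside the liver, was 1.52-fold lower after clodronate on the high-fat diet and 1.11-fold lower on the low-fat diet. Other differences after clodronate among the largest on the low-fat diet were those of Adpgk, an ADP-dependent glucokinase, at -0.40, and Gyg, glycogenin, the primer of glycogen, at 0.33 (log2). On the high-fat diet they were those of Phkg2 and Tkfc, at -0.47 and -0.37, and of Pfkm, muscle phosphofructokinase, at 0.50 (log2). Adpgk was dim, with log2 signals of 4.70, 4.30, 4.47 and 3.85. It was lower after clodronate on the high-fat diet too, at -0.47 with the value below 4 set to 4. Phka2, a subunit of liver phosphorylase kinase, was 0.42 higher with diet and PBS, and Pfkm was 0.52 higher with diet and clodronate (log2). Pfkm had opposite signs elsewhere, at -0.34 for diet with PBS and -0.37 for clodronate on the low-fat diet (log2). Pkm had log2 signals of 4.92, 4.77, 4.92 and 4.32, close to the limit of 4. Macrophage markers were lower on the same arrays, and their part in the Pkm value was not tested.

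**Figure D4:**
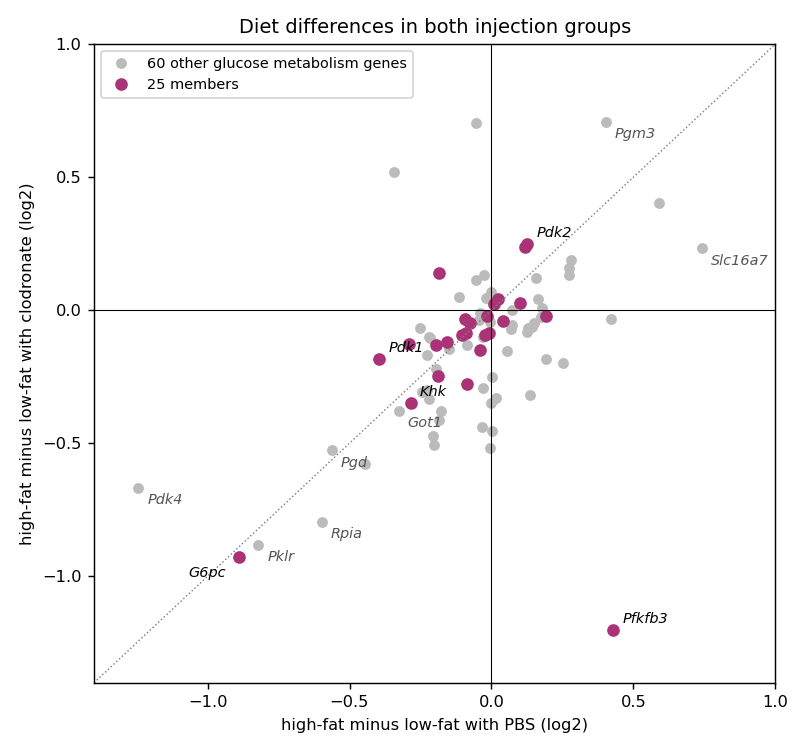
Log2 difference between high-fat and low-fat diet with PBS (horizontal) and with clodronate (vertical), for the 25 members and the 60 other measured genes of glucose metabolism. The dotted line marks equal differences. G6pc and Pklr lie together at the lower left near the line, and Pfkfb3 lies at 0.43 and -1.20, far from it.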

How the data were processed

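Expression was measured in 4 pooled liver RNA samples, 1 Affymetrix array per group, from 5 µg of RNA with an integrity number above 8.0, per the labels' protocols. The authors deposited log2 expression values of 45101 probe sets for which the submitters' processing notes name GCRMA 2.24.1, a method that corrects background by probe sequence and brings arrays to a common distribution. Array medians lay between 2.73 and 2.79 (log2). The number of arrays limits the precision.

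Probe sets were named from the platform annotation, in which 34958 have 1 symbol, 932 several and 9211 none. Each of 18194 genes was read by its brightest single-symbol probe set, and 8650 reached 4 on at least 1 array. Log2 differences between arrays were taken after values below 4 were set to 4, and none of the 25 genes was below 4. Differences of 1 array against 1 have no test. For diet averaged over injections and clodronate averaged over diets, limma 3.58.1 (R 4.3.3) was run as an additive model with a mean-dependent prior variance. It had 1 residual degree of freedom per gene and Benjamini-Hochberg adjustment at 0.05 over all 8650 genes. A check on simulated data drew noise with a mean-dependent variance and gave both injection groups the same diet effect. That check therefore cannot decide between the variance models. With 1 array per group, the residual of a gene in the real data is the disagreement between the 2 differences being averaged. The p-values therefore set an average against this disagreement, with a prior from all genes, and not against a spread between replicate arrays or mice. Promoters were read from RefSeq windows with Python 3.11.15 and pandas 2.3.3. The members, the other lists and the tests were chosen with earlier results of these data known. All measured members are named, and of the other 60 genes those called and those among the 3 largest measured differences per direction in a pair of arrays. Alternatives changed the floor, scaling, probe set choice, filter and variance model.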

Additional observations from a re-analysis of the deposited data

Results flagged for a closer look

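Pfkfb3 differed in opposite directions under the same contrast. After clodronate its log2 signal was higher by 1.28 on the low-fat diet and differed by -0.35 on the high-fat diet. With the high-fat diet it differed by 0.43 with PBS and by -1.20 with clodronate. Both pairs of values come from the same 4 arrays, of which the low-fat clodronate array was the high one, and the difference between them was not tested. Among the 25 genes Pfkfb3 was the only one whose differences had opposite signs, each 1.2-fold or more, with at least 1 of them 1.5-fold or more.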

How the results depend on the processing

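No paired analysis was possible because each group is 1 array with no replicate number in the labels, and for the same reason no replicate could be left out. The call of G6pc for diet held under all alternatives but 1: with 1 prior variance for all genes 0 members were called. The number of genes called for diet in limma was 146, 0 with 1 prior variance, 42 with no filter on low values, 60 with values below 4 set to 4 and 60 with all probe sets as features; for clodronate it was 94, 39, 64, 54 and 65. With arrays centred on their median, a check added after seeing the data, 8 members in place of 13 had both high-fat arrays below both low-fat arrays, and 6 in place of 3 had both above. After quantile normalization these numbers were 12 and 4. The members' median diet difference with clodronate was -0.09 (log2) as deposited, 0.02 after centring and -0.03 after quantile normalization. That of all genes was -0.08, 0.01 and 0.00. Centring moved the split of diet calls from 75 higher and 71 lower genes to 111 and 60, and that of genes 1.5-fold apart between the diets with clodronate from 146 and 414 to 229 and 254. Signals near 4, as for Pkm and Adpgk, are the least precise, and 1 array per group limits all values.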
